A study of Homo sapiens with 12 samples.

Results

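Importins and exportins are the karyopherins, the soluble carriers that take proteins and RNAs through the nuclear pore. The mRNA levels of 10 of them were measured by RNA sequencing in liver cancer cells with and without METTL5, the enzyme that methylates an adenosine of 18S ribosomal RNA (m6A). The members were the rows of the deposited gene table named KPNA1, KPNA2, KPNA3, KPNA4, KPNA6, KPNB1, IPO5, IPO7, TNPO1 and XPO1. All 10 were found among the 58884 genes of the table, and all 10 were among the 16537 genes with enough counts to be tested. The groups were HCC-LM3 METTL5 knockout, HCC-LM3 wild type, Huh-7 METTL5 knockout and Huh-7 wild type, with 3 libraries in each of the 4 groups. HCC-LM3 and Huh-7 are human lines labelled as hepatocellular carcinoma cells. The knockout cells had been infected to deliver a guide RNA against METTL5, and the wild-type cells had received no treatment. No control guide is named for the wild-type cells, and whether the knockout cells are 1 clone or a mixed population is not stated. Nothing states that the 3 libraries of a group were grown separately, so each p-value reflects library-to-library spread that may be technical.

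Nuclear transport by these carriers runs on the small GTPase Ran. An importin binds its cargo in the cytoplasm and lets it go when Ran-GTP binds inside the nucleus, whereas an exportin needs Ran-GTP to hold its cargo. Importin alphas (KPNA1, KPNA2, KPNA3, KPNA4 and KPNA6) are adaptors that recognise the classical nuclear localisation signal, and importin beta 1 (KPNB1) carries the adaptor and its cargo through the pore. IPO5, IPO7 and TNPO1 bind cargo directly, among them ribosomal proteins, histones and RNA-binding proteins. XPO1, also called CRM1, exports proteins with a leucine-rich signal and is the target of leptomycin B and of the drug selinexor. KPNA2 is known for its high levels in many tumours, liver cancer included.

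Sequences upstream of the annotated start were matched for 8 of the 10 members in the RefSeq promoter table (GRCh38.p14), not for KPNA4 and KPNB1. The 250 bases before each start were searched on both strands for CCAAT, the letters of the CCAAT box, and for TTTGAA, the letters of a cell cycle homology region. These letters were chosen with the members' values known. CCAAT was found for 5 of the 8 members (KPNA2, XPO1, KPNA6, TNPO1 and IPO5), against 32% of 35116 windows of the same length. TTTGAA was found for 2 of the 8 (KPNA2 and IPO7), against 13.3% of the windows, and both together for KPNA2, against 4.69%. A member was counted if any of its windows matched, whereas these shares are of single windows, so the units differ. XPO1 and TNPO1 each had a further window with neither motif. The stretches below are shown because KPNA2 held its fall in both lines under every processing tried, XPO1 carried the lowest value after KPNA2 in HCC-LM3, and KPNA1 and KPNA6 were not called there. They are written 5′ to 3′ on the gene's strand, with the matched letters in capitals and bases that GENCODE 29 annotates as untranslated region left out, save for 30 bases of KPNA2. KPNA2 lies at chr17:68035632-68035661 (plus strand), XPO1 at chr2:61538357-61538491 (minus strand), KPNA6 at chr1:32107806-32108037 (plus strand) and KPNA1 at chr3:122514946-122515189 (minus strand).
KPNA2: gtttTTCAAAtccaCCAATgggcacacagc
XPO1: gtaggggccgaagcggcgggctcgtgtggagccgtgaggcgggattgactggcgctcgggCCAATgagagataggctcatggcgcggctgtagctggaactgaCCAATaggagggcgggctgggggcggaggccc
KPNA6: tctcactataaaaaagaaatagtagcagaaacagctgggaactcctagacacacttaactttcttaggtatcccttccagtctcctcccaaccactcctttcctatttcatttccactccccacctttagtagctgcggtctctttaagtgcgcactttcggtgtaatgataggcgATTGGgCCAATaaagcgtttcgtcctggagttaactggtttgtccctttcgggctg
KPNA1: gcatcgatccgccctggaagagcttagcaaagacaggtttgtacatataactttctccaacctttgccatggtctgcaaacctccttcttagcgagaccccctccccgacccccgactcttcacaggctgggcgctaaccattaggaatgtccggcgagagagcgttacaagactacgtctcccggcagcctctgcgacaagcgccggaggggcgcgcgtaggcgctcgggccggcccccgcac

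KPNA2 had CCAAT beginning 89 and 58 bases before its RefSeq start and TTTGAA (read as TTCAAA on the gene's strand) beginning 99 bases before it. XPO1 had CCAAT beginning 75 and 32 bases before the start of 1 of its 2 entries. KPNA6 had CCAAT beginning 68 bases before its start, with ATTGG, the same letters on the other strand, at 74 bases. KPNA1 had neither. A match is a description of these letters and not evidence of a site.

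The libraries held 17495280 to 26415554 counts. METTL5 itself had 0 counts in each of the 6 knockout libraries, against 268, 327 and 325 in HCC-LM3 wild type and 237, 258 and 169 in Huh-7 wild type. The TMM scaling factors, which set the libraries on a common scale, were 1.27 to 1.31 in HCC-LM3 knockout and 1.33 to 1.51 in HCC-LM3 wild type, but 0.491 to 0.51 in Huh-7 knockout against 1.06 to 1.10 in Huh-7 wild type. HCC-LM3 wild-type replicate 1 stood apart from replicates 2 and 3 of its group, with a chi-square per degree of freedom of 35.3 and 29 against 4.03 between the other 2. All 10 of the hepatocyte markers listed were above 1 CPM (counts scaled to a common library size) in Huh-7, with a summed level of 20100 to 20700 CPM in knockout and 12600 to 13500 CPM in wild type. APOA1, APOC3, TTR and SERPINA1 had higher means in Huh-7 knockout than in Huh-7 wild type. The other listed hepatocyte markers had lower means there, ALB at 286 CPM in knockout and 806 CPM in wild type. Only 1 of the 10, HNF4A, was above 1 CPM in HCC-LM3, with a sum over the list of 32.5 to 39.8 CPM in knockout and 26.6 to 30.8 CPM in wild type, so the hepatocyte identity of HCC-LM3 rests on its label. Cholangiocyte markers summed to 319 to 363 CPM in HCC-LM3 knockout and 240 to 331 CPM in HCC-LM3 wild type, and to 1660 to 1760 CPM in Huh-7 knockout and 554 to 588 CPM in Huh-7 wild type. The Huh-7 sums were mostly KRT19, with means of 1690 CPM in knockout and 487 CPM in wild type. SOX9 and EPCAM had lower means in Huh-7 knockout than in Huh-7 wild type. Leukocyte, fibroblast and endothelial markers summed to between 2.06 and 113 CPM in every library. The part of these marker levels in the results was not tested.

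In HCC-LM3, 8 of the 10 carriers had less mRNA in METTL5 knockout cells and none had more. A gene was called at an adjusted p under 0.05 in edgeR's quasi-likelihood test, by which 12.9% of all genes tested were lower and 14% higher. No member was higher at an unadjusted p under 0.05 or by DESeq2 either. The median of the members was −0.43 on the log2 scale, against 0 for all genes tested. In bulk RNA, fewer cells with a transcript and less transcript per cell cannot be told apart. KPNA2 fell most, KPNA1 and KPNA6 were not called, and TMM-scaled CPM of knockout lay wholly below wild type for 8 members, against 18.2% of all genes tested.

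**Figure D1:**
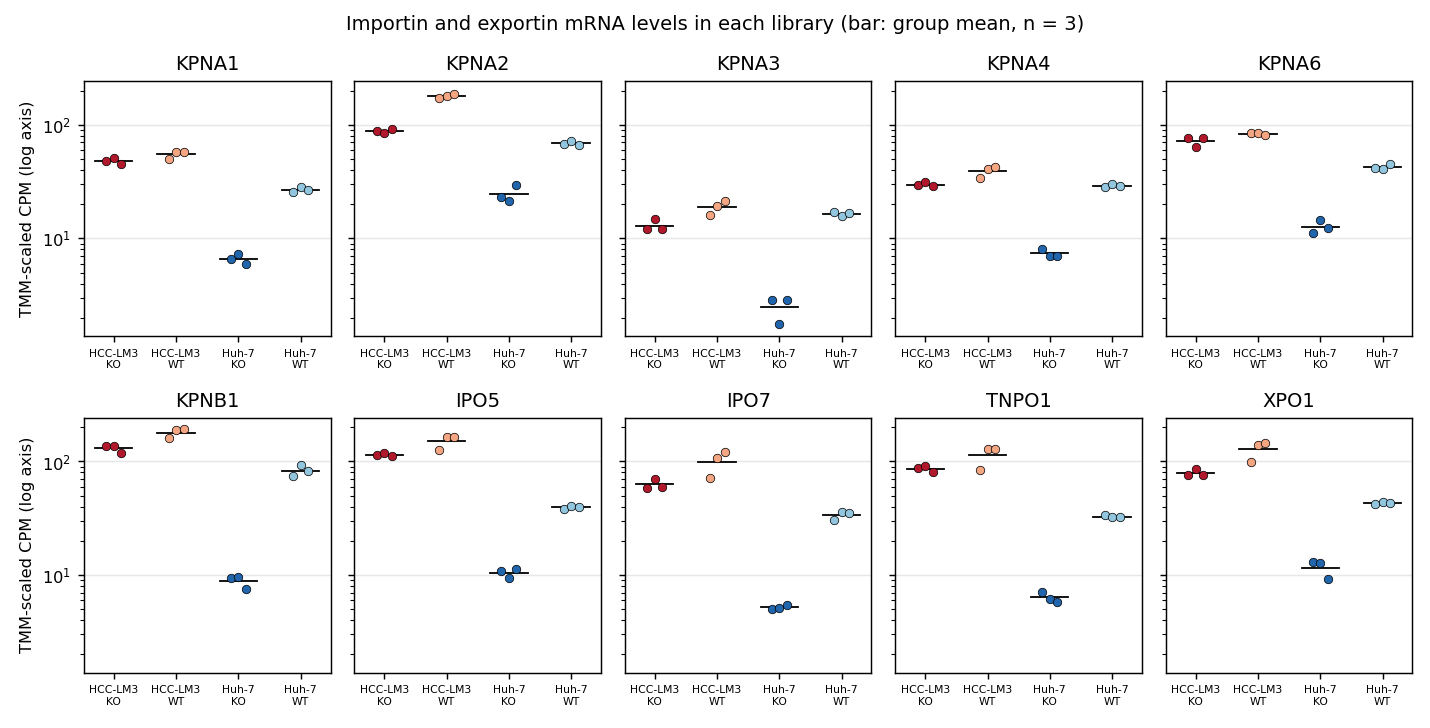
TMM-scaled CPM of each member on a log axis (points: the 3 libraries of a group, bar: group mean). In HCC-LM3 the knockout points of KPNA2 sit at 84.6 to 91.2 CPM, below all wild-type points at 173 to 186 CPM, and in Huh-7 the knockout points of all 10 members lie below the wild-type points.

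The importin alphas did not fall equally in HCC-LM3. KPNA2 had 88, 84.6 and 91.2 CPM in knockout, against 173, 178 and 186 CPM in wild type. The groups were far apart, and KPNA2 fell by 1.03 ± 0.09 on the log2 scale (SE, edgeR adjusted p = 2.73e-09), a 2.04-fold lower level. Only 2.7% of the genes tested had a lower log2 fold change. KPNA3, which with KPNA4 forms its own subfamily of importin alphas, had 12.2, 14.7 and 12 CPM in knockout and 16.1, 19.4 and 21.2 CPM in wild type, and fell by 0.55 ± 0.13 (edgeR adjusted p = 0.00207). KPNA4 had 28.7 to 31.2 CPM in knockout and 33.8 to 42.1 CPM in wild type, and fell by 0.39 ± 0.10 (edgeR adjusted p = 0.005). The members of the remaining subfamily did not pass the test. KPNA1 had 45.1 to 50.7 CPM in knockout and 49.7 to 57.7 CPM in wild type, groups that overlapped (log2 fold change −0.20 ± 0.10, edgeR adjusted p = 0.13). KPNA6 had 63.9 to 76.7 CPM in knockout and 80.9 to 85.3 CPM in wild type (log2 fold change −0.21 ± 0.09, edgeR adjusted p = 0.0898).

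The importin beta family carriers and the exportin had smaller fold changes than KPNA2 in HCC-LM3, IPO5, IPO7, KPNB1, TNPO1 and XPO1 all being called lower. KPNB1 had 138, 137 and 119 CPM in knockout and 160, 188 and 192 CPM in wild type, and fell by 0.45 ± 0.10 on the log2 scale (edgeR adjusted p = 0.000896). XPO1 had 76.1, 85.5 and 76.1 CPM in knockout and 99.6, 140 and 145 CPM in wild type, and fell by 0.70 ± 0.11 (edgeR adjusted p = 6.09e-05). IPO7, which imports ribosomal proteins and, together with KPNB1, histone H1, had 58.4, 70.8 and 59.3 CPM in knockout and 71.7, 107 and 121 CPM in wild type. It fell by 0.67 ± 0.14 (edgeR adjusted p = 0.00239), and its groups were parted only by the small gap between knockout replicate 2 and wild-type replicate 1. IPO5, another importer of ribosomal proteins and core histones, had 111 to 118 CPM in knockout and 127 to 165 CPM in wild type, and fell by 0.41 ± 0.09 (edgeR adjusted p = 0.00167). TNPO1, the importer of hnRNP A1 and related RNA-binding proteins, had 87.1, 90.4 and 81.5 CPM in knockout and 84.7, 130 and 129 CPM in wild type. Its wild-type replicate 1 lay among the knockout libraries, and the fall of TNPO1 passed the test (log2 fold change −0.41 ± 0.11, edgeR adjusted p = 0.0086).

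HCC-LM3 wild-type replicate 1, the library that stands apart, was also the wild-type library nearest to knockout for 9 of the 10 members. Without it, 9 members were called lower and the median was −0.57, KPNA1 being the one gained (log2 fold change −0.27, edgeR adjusted p = 0.0156). Without wild-type replicate 2 or 3, 7 members were called, and TNPO1 was the one lost (−0.32 and −0.33, edgeR adjusted p = 0.0652 and 0.0612).

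In Huh-7, all 10 carriers had less mRNA in METTL5 knockout cells under TMM scaling, by 2.81-fold for KPNA2 up to 9.40-fold for KPNB1. This direction depends on the processing: with offsets for gene length and GC content, described further on, 4 members were lower, 3 higher and 3 not called. Under TMM scaling the same call was met in the lower direction by 43.2% of all genes tested, in the higher direction by 31.7% and in either by 75%. The median of the members was −2.00 on the log2 scale, against −0.30 for all genes tested. Scaled by library totals alone, the medians were −3.11 for the members and −1.40 for all genes, a shift that the scaling gives to every gene alike. Knockout and wild-type CPM did not overlap for any of the 10, against 44.2% of genes tested with knockout wholly below wild type.

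KPNB1 had 9.46, 9.55 and 7.47 CPM in Huh-7 knockout and 74.1, 92.6 and 82.7 CPM in Huh-7 wild type, and fell by 3.23 ± 0.13 on the log2 scale (edgeR adjusted p = 3.86e-20). Of all genes tested, 5.56% had a lower log2 fold change. The counts behind these values were 95.6, 82.4 and 68.2 in knockout and 2026.4, 2114.1 and 1631.6 in wild type. IPO7 had 5.03, 5.13 and 5.49 CPM in knockout and 30.7, 36.2 and 35 CPM in wild type, and fell by 2.70 ± 0.21 (edgeR adjusted p = 1.59e-09). IPO5 fell by 1.90 ± 0.12 and TNPO1 by 2.36 ± 0.16, with edgeR adjusted p-values of 1.69e-15 and 2.7e-13. XPO1 had 12.9, 12.8 and 9.23 CPM in knockout and 42.1, 43.7 and 43.4 CPM in wild type, and fell by 1.88 ± 0.14 (edgeR adjusted p = 1.72e-12). The wild-type libraries lay close together for XPO1, and every knockout library lay far below them.

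Among the importin alphas of Huh-7, KPNA3 had the lowest fold change and KPNA2 the smallest fall under TMM scaling, an order that did not hold with the offsets, where KPNA2 (−0.98) lay below KPNA3 (−0.92) and the other importin alphas. It had 2.86, 1.75 and 2.86 CPM in knockout, from 15 to 29 counts per library, and 17.2, 15.6 and 16.6 CPM in wild type, and fell by 2.71 ± 0.19 on the log2 scale (edgeR adjusted p = 1.06e-14). KPNA2 had 23.2, 21.3 and 29.2 CPM in knockout and 68, 72.4 and 66.9 CPM in wild type, and fell by 1.49 ± 0.11 (edgeR adjusted p = 1.79e-14), and 30.1% of the genes tested had a lower log2 fold change. KPNA1, KPNA4 and KPNA6 lay between, with falls of 2.02 ± 0.13, 1.98 ± 0.13 and 1.75 ± 0.12 (edgeR adjusted p at most 3.17e-15). Their knockout levels were 5.93 to 7.34, 6.99 to 8.08 and 11.2 to 14.6 CPM, against wild-type levels of 25.8 to 28.3, 28.2 to 30.4 and 40.8 to 45.2 CPM.

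Most members are long genes, and all are low in GC content. The members were chosen with earlier results of these data known, so that choice may not be independent of these properties. In the table, 9 of the 10 are longer than the median tested gene of 2745 bases, KPNA2 at 2456 bases being the exception, and TNPO1 is the longest at 11183 bases. All 10 have a transcript GC content below the median of 49.3%, from 37.2% for TNPO1 to 47.5% for KPNA6. These properties moved with the fold changes of all genes, taken in 4 equal classes by length or by GC content. In Huh-7 the class of the longest genes, which holds 7 of the members, had a median log2 fold change of −1.82, against 1.12 in the class of the shortest. The class with the lowest GC content, which also holds 7 members, had −0.32 in HCC-LM3 and −1.73 in Huh-7. The class with the highest had 0.27 in HCC-LM3 and 0.66 in Huh-7. In HCC-LM3 the median was −0.05 for the longest genes and 0.04 for the shortest. Whether these trends come from the library preparation or from the cells was not tested.

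**Figure D2:**
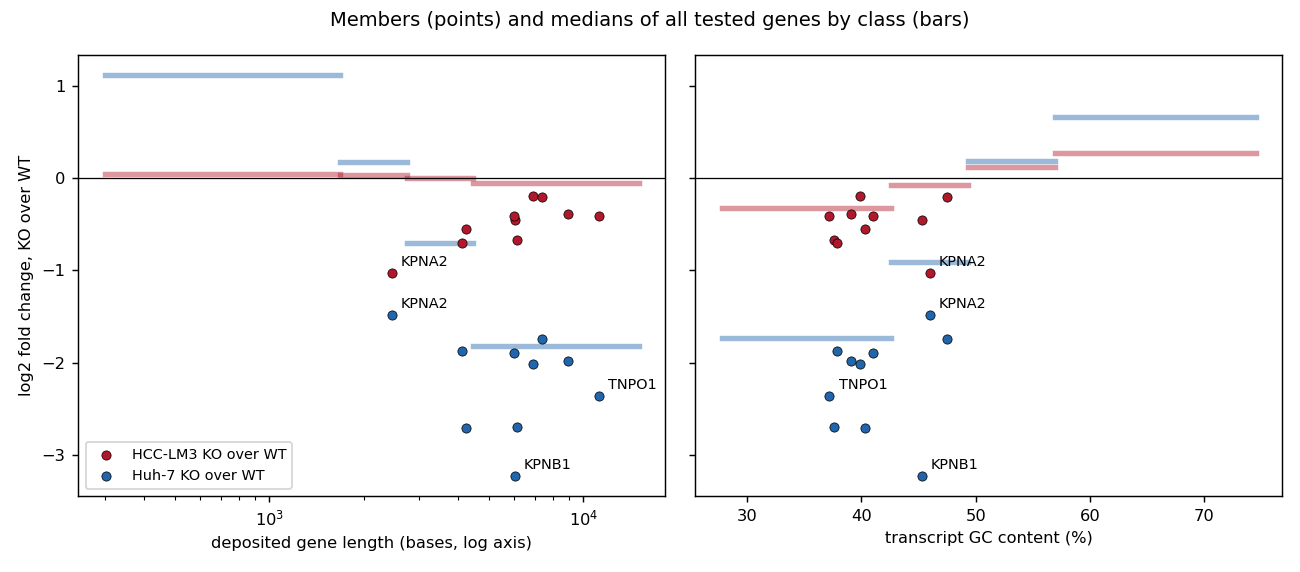
Log2 fold change of knockout over wild type against deposited gene length (log axis) and transcript GC content, with points for the 10 members and horizontal bars for the median of all tested genes in each of 4 equal classes (the outer length classes reach beyond the drawn bars). The bars for Huh-7 stand at 1.12 in the shortest class and −1.82 in the longest, and the lowest point is KPNB1 in Huh-7 at −3.23.

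To set each member against genes of like length and GC content, smooth offsets on both were fitted per library and the test was repeated. In HCC-LM3, 4 members were then called lower and none higher, against 9.08% of all genes called lower and 9.9% higher. They were KPNA2 (−0.92 ± 0.07, edgeR adjusted p = 2.55e-09), KPNB1 (−0.34, adjusted p = 0.000795), XPO1 (−0.31, adjusted p = 0.00265) and IPO7 (−0.30, adjusted p = 0.00455). The calls of KPNA3, KPNA4, IPO5 and TNPO1 ended, with values of −0.23, −0.11, −0.14 and −0.09. KPNA2 thus kept most of its fall, while the other members moved nearer to 0, except for KPNA6 at −0.21.

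In Huh-7 with the same offsets, 4 members were called lower, 3 were called higher and 3 were not called, against 28.5% of all genes lower and 29.4% higher. KPNB1 fell by 1.54 ± 0.10 (edgeR adjusted p = 6.41e-12), KPNA2 by 0.98 ± 0.08 (adjusted p = 3.32e-10), KPNA3 by 0.92 ± 0.17 (adjusted p = 6.24e-05) and IPO7 by 0.43 ± 0.13 (adjusted p = 0.00689). The direction turned for KPNA4 (0.56, edgeR adjusted p = 0.000118), TNPO1 (0.38, adjusted p = 0.00793) and IPO5 (0.20, adjusted p = 0.0471, or 0.0772 with the replicate number added as a block, which ends its call). XPO1 was at −0.03, KPNA6 at −0.14 and KPNA1 at 0.27, with edgeR adjusted p-values of 0.808, 0.319 and 0.0535. KPNA2, KPNB1 and IPO7 were therefore called lower in both lines with and without the offsets, and the calls of the other members depended on this choice in at least 1 line.

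**Figure D3:**
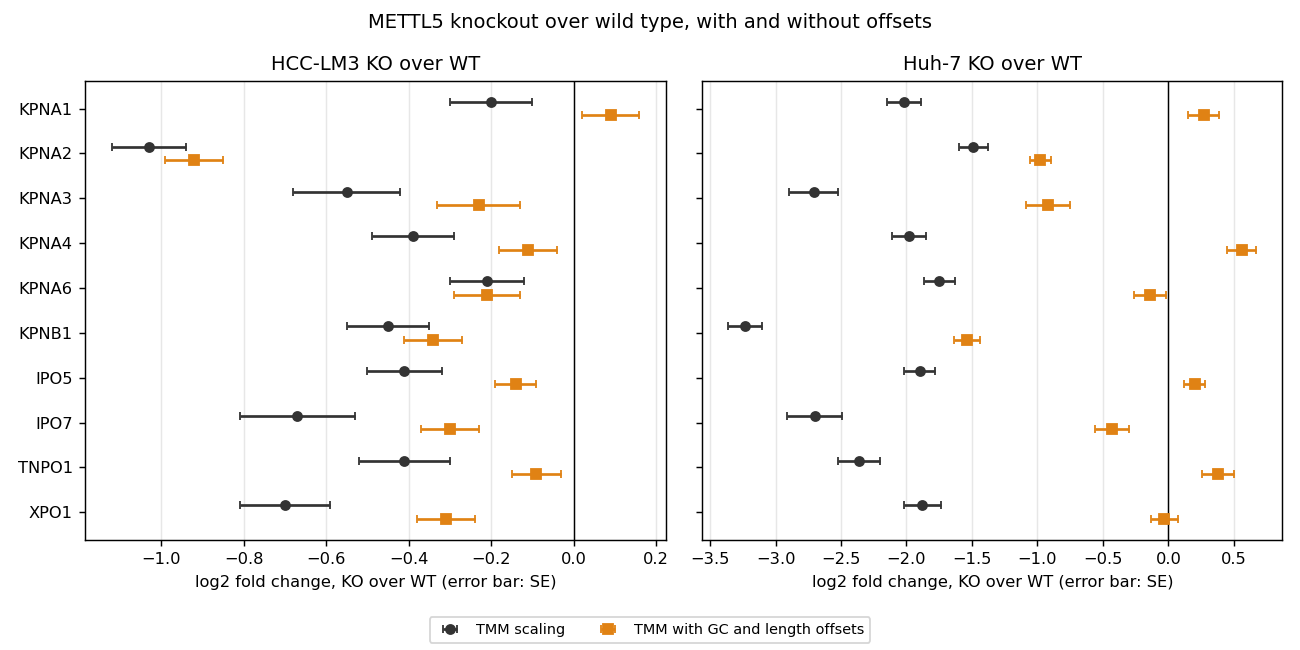
Log2 fold change of knockout over wild type for each member, with TMM scaling (black circles) and with added GC and length offsets (orange squares), error bars showing the SE. KPNA2 stays at −0.92 and −0.98 with the offsets in HCC-LM3 and Huh-7, whereas KPNA4 moves to 0.56 in Huh-7.

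The size of the knockout effect differed between the lines for all 10 members. The difference, the HCC-LM3 log2 fold change minus the Huh-7 one, was above 0 and passed the edgeR test for each, against 37.7% of all genes tested with a call in that direction and 61.6% in either. It was largest for KPNB1 (2.78 ± 0.16, edgeR adjusted p = 1.1e-15) and smallest for KPNA2 (0.47 ± 0.14, adjusted p = 0.00448). With the GC and length offsets it was called above 0 for KPNB1 (1.20) and KPNA3 (0.70), below 0 for KPNA4 (−0.67), TNPO1 (−0.47) and IPO5 (−0.34), and for neither direction in the other 5, against 23.8% of all genes above 0 and 24.4% below. For KPNA2 the difference was 0.07 with the offsets and 0.05 with DESeq2's size factors (edgeR adjusted p = 0.799), and did not pass the test under either.

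Ratios between members do not depend on how a library is scaled, but they can carry differences in gene length and GC content. The log2 ratio of KPNA2 to KPNB1 counts was −0.58 ± 0.17 in HCC-LM3 knockout and 0.00 ± 0.10 in HCC-LM3 wild type (SD, n = 3 each). In Huh-7 it was 1.47 ± 0.43 in knockout and −0.26 ± 0.12 in wild type. The ratio was lower in knockout than in wild type in HCC-LM3 and higher in Huh-7, with no overlap between the groups of a line. Taken from the fitted fold changes, KPNA2 minus KPNB1 was −0.58 in HCC-LM3 with and without the offsets, whereas in Huh-7 it was 1.74 without them and 0.56 with them. The log2 ratio of XPO1 to KPNB1 was −0.73 ± 0.11 in HCC-LM3 knockout and −0.50 ± 0.16 in HCC-LM3 wild type, against 0.39 ± 0.08 in Huh-7 knockout and −0.94 ± 0.13 in Huh-7 wild type. Its HCC-LM3 groups overlapped (−0.86 to −0.65 in knockout, −0.69 to −0.4 in wild type). From the fitted fold changes, XPO1 minus KPNB1 was −0.25 in HCC-LM3 without the offsets and 0.03 with them. In Huh-7 it was 1.35 and 1.51. KPNA3 against its relative KPNA4 was at −1.60 ± 0.36 in Huh-7 knockout and −0.82 ± 0.12 in Huh-7 wild type, and at −1.20 ± 0.10 in HCC-LM3 knockout and −1.04 ± 0.05 in HCC-LM3 wild type. From the fitted fold changes, KPNA3 minus KPNA4 was −0.73 in Huh-7 without the offsets and −1.48 with them. In HCC-LM3 it was −0.16 and −0.12. A permutation test of 3 libraries against 3 cannot go below an exact p of 0.1, and none was run on these ratios.

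Levels of different genes were compared in the deposited TPM values, which are scaled for gene length. KPNA2 was the most abundant member in all 4 groups, at 72.8 ± 1.70 TPM in HCC-LM3 knockout, 169 ± 22.2 TPM in HCC-LM3 wild type, 5.33 ± 2.53 TPM in Huh-7 knockout and 38.8 ± 2.38 TPM in Huh-7 wild type (SD, n = 3 each). KPNB1 came next in HCC-LM3 knockout (57.5 ± 11.8 TPM), HCC-LM3 wild type (83.6 ± 18.0 TPM) and Huh-7 wild type (30.8 ± 3.84 TPM), with no overlap with its neighbours in the order. In HCC-LM3 wild type its lowest library, at 62.8 TPM, lay below the highest of XPO1, at 65.6 TPM. The length that TPM and count imply was 0.723 to 0.777 of the deposited length for KPNB1 in HCC-LM3 wild type. For XPO1 it was 1.21 to 1.36 there. With counts divided by the deposited length, XPO1 lay above KPNB1 in HCC-LM3 wild-type replicates 2 and 3, so this order depends on the values used. In Huh-7 knockout the 8 members after KPNA2 lay at 0.493 to 1.13 TPM with each range overlapping the next, XPO1 at the top and IPO7 at the bottom, and KPNA3 came last at 0.19 ± 0.052 TPM. KPNA3 and KPNA4 were the least abundant in HCC-LM3, at 5.13 ± 0.748 and 5.05 ± 0.205 TPM in knockout and 7.52 ± 1.75 and 7.43 ± 1.81 TPM in wild type, and could not be ordered. IPO5, XPO1 and TNPO1 held the middle places in HCC-LM3 wild type, at 55.2 ± 12.5, 52.9 ± 16.3 and 41 ± 12.7 TPM, and their ranges overlapped.

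The make-up of the importin alpha pool, the TPM of each adaptor as a share of the summed TPM of the 5, differed between knockout and wild type in HCC-LM3. KPNA2 made up 60.7% ± 2.48 of the pool in HCC-LM3 knockout and 74% ± 0.28 in HCC-LM3 wild type (SD, n = 3 each). KPNA1 made up 19.2% ± 2.75 in knockout and 11.5% ± 0.386 in wild type, and KPNA6 11.6% ± 0.976 in knockout and 8.05% ± 0.518 in wild type. The groups did not overlap for any of these 3 adaptors. From counts divided by the deposited length, KPNA1 made up 11.8% in knockout and 7.88% in wild type, and KPNA6 16.6% in knockout and 11.3% in wild type, so the order of KPNA1 and KPNA6 depends on which values are used. In Huh-7 the share of KPNA2 was 71.6% ± 10.3 in knockout and 65.7% ± 1.01 in wild type, with knockout libraries from 60% to 79.8% on either side of the wild-type range. KPNA3 made up 2.76% ± 1.09 in Huh-7 knockout and 7.03% ± 0.52 in Huh-7 wild type, groups that did not overlap. Formed from counts divided by the deposited length, the share of KPNA2 was 60.7% in HCC-LM3 knockout and 72.1% in HCC-LM3 wild type. In Huh-7 it was then 70.6% in knockout (67.2 to 74.8%) and 62.5% in wild type (61.3 to 63.8%). Whether the Huh-7 groups overlap therefore depends on which values are used. The depth behind the Huh-7 knockout shares was low, with 53.9 to 67.2 counts of KPNA1 and 15 to 29 counts of KPNA3 per library.

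**Figure D4:**
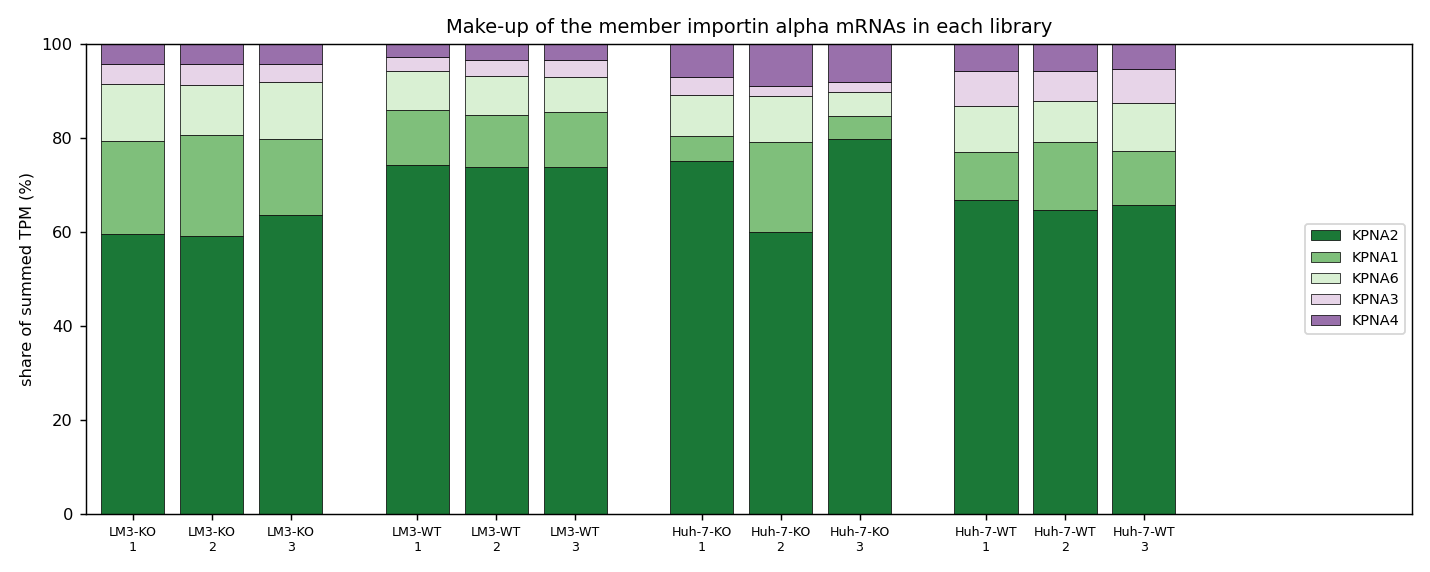
Share of each importin alpha in the summed TPM of the 5 in every library, in percent (LM3: HCC-LM3). KPNA2, the dark green segment, ends at 59.1 to 63.6% in HCC-LM3 knockout and at 73.8 to 74.3% in HCC-LM3 wild type, and varies from 60 to 79.8% in Huh-7 knockout.

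The untreated lines differed in most of these carriers. In HCC-LM3 wild type, 9 of the 10 members were higher than in Huh-7 wild type and none was lower, where 41.8% of all genes tested were higher and 82.8% differed in either direction. The median of the members was 1.24 on the log2 scale, against 0.03 for all genes. IPO5 differed most, with 127, 165 and 165 CPM in HCC-LM3 wild type and 38.1, 40.8 and 39.7 CPM in Huh-7 wild type (log2 fold change 1.94 ± 0.10, edgeR adjusted p = 1.55e-18). TNPO1 (1.81 ± 0.12), XPO1 (1.58 ± 0.12), IPO7 (1.56 ± 0.15) and KPNA2 (1.37 ± 0.09) were the next. KPNB1, KPNA1, KPNA6 and KPNA4 were higher by 1.12, 1.03, 0.98 and 0.42, with edgeR adjusted p-values of at most 0.000454. KPNA3 overlapped between the lines, at 16.1 to 21.2 CPM in HCC-LM3 wild type and 15.6 to 17.2 CPM in Huh-7 wild type (0.20 ± 0.13, edgeR adjusted p = 0.154). It was called higher without HCC-LM3 wild-type replicate 1 (0.35, adjusted p = 0.00889) and lower with the GC and length offsets (−0.48, adjusted p = 0.000111). KPNA4 was no longer called with the offsets (−0.02), and the remaining 8 members were still called higher, against 38.4% of all genes higher and 43.9% lower.

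The other carriers of the family gave a mixed picture. Of 17 further karyopherins tested, 5 were called lower and 2 higher in HCC-LM3 knockout, and 13 lower and 1 higher in Huh-7 knockout. Of all genes tested, 12.9% were lower and 14% higher in HCC-LM3, and 43.2% lower and 31.7% higher in Huh-7. CSE1L, the exportin that returns importin alphas to the cytoplasm, fell by 0.87 ± 0.09 in HCC-LM3 and by 1.25 ± 0.11 in Huh-7 on the log2 scale (edgeR adjusted p = 7.36e-08 and 3.93e-12). With the offsets it was −0.52 in HCC-LM3 and turned to 0.38 in Huh-7, called in each. IPO4, an importer of histones and ribosomal proteins, rose in both lines, by 0.55 ± 0.10 in HCC-LM3 and by 0.25 ± 0.10 in Huh-7 (edgeR adjusted p = 0.000128 and 0.0274), and was also called higher in both with the offsets (0.30 and 0.22). IPO13 was called higher in HCC-LM3 (0.33, edgeR adjusted p = 0.0119) and had 0.20 in Huh-7 (adjusted p = 0.0764). With the offsets this was the other way round, at 0.09 in HCC-LM3 (edgeR adjusted p = 0.393) and 0.35 in Huh-7 (adjusted p = 0.000162).

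XPO7, XPO4, IPO11 and RANBP6 were called lower in both lines, with log2 fold changes of −0.49, −0.48, −0.55 and −0.62 in HCC-LM3 and of −1.30, −2.34, −1.72 and −3.43 in Huh-7. With the offsets none of the 4 was called in both lines, XPO7 staying lower in HCC-LM3 (−0.44) and RANBP6 in Huh-7 (−1.52), while XPO4 had 0.30 in Huh-7 (not called). Under TMM scaling, called lower in Huh-7 and not called in HCC-LM3 were KPNA5 (−4.37), TNPO3 (−2.97), IPO8 (−2.40), XPOT (−2.27), XPO5 (−1), IPO9 (−0.77), TNPO2 (−0.74) and XPO6 (−0.59). TNPO3, the importer of SR splicing factors, was still at −2.32 with the offsets (edgeR adjusted p = 5.47e-15), and KPNA5, a relative of KPNA1 and KPNA6, was at −1.64. With the offsets IPO9 turned to 1.28 in Huh-7 (called) and IPO8 was at −0.48 (called). XPO5 (0.15), XPOT (−0.1) and XPO6 (−0.09) were then not called in Huh-7. TNPO2 was called lower in both lines with the offsets (−0.25 in HCC-LM3, −0.2 in Huh-7), and KPNA5 was called higher in HCC-LM3 (0.57). The difference between the lines was called above 0 for 13 of the 17 and below 0 for none, against 37.7% of all genes above 0. With the offsets it was called above 0 for 3 and below 0 for 4, against 23.8% and 24.4% of all genes. With the offsets, 3 of the 17 were called lower and 2 higher in HCC-LM3, against 9.08% and 9.9% of all genes. In Huh-7, 5 were then lower and 4 higher, against 28.5% and 29.4% of all genes.

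None of the 7 Ran cycle genes tested was called in HCC-LM3 knockout, whereas 6 rose and none fell in Huh-7 knockout, where 31.7% of all genes tested were higher. RANGAP1, the GTPase activator of Ran, was the one not called (−0.05). In HCC-LM3, 1 of the 7 was higher at an unadjusted p under 0.05 in edgeR, 0 were called by DESeq2 and 1 was called lower with the offsets. RANGRF, a Ran-binding protein, rose most, by 1.90 ± 0.11 on the log2 scale (edgeR adjusted p = 5.47e-17). These genes vary in length in the table, from 831 bases for RANGRF to 3233 bases for RANBP3. With the offsets, 5 of the 7 were called higher in Huh-7, against 29.4% of all genes tested. RAN (1.14 without and 1.98 with the offsets) and RCC1 (0.44 and 0.54) had larger values with them. The other called genes had smaller ones, RANGRF at 0.26, while RANBP1 (0.03) and RANGAP1 (−0.15) were not called. Among 3 cargo adaptors of export and import, NMD3, which links the large ribosomal subunit to XPO1, fell by 0.67 ± 0.14 in HCC-LM3 (edgeR adjusted p = 0.00052). PHAX, the adaptor for small nuclear RNA export, fell by 2.46 ± 0.23 in Huh-7 (edgeR adjusted p = 1.53e-11), where 2 of the 3 fell. Both genes were also called lower with the offsets.

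Of 31 nucleoporins tested, 13 were called lower and 2 higher in HCC-LM3 knockout, and 26 lower and 5 higher in Huh-7 knockout, against the same shares of all genes (12.9% and 14% in HCC-LM3, 43.2% and 31.7% in Huh-7). The largest fall in HCC-LM3 was that of NUP58, a nucleoporin of the central channel (−0.92 ± 0.11, edgeR adjusted p = 5.8e-07), and the largest rise that of NUP210, a membrane nucleoporin (0.42 ± 0.11, adjusted p = 0.00595), which was not called with the offsets (0.13, adjusted p = 0.227). In Huh-7 they were AHCTF1, also called ELYS, which starts pore assembly on chromatin (−3.37 ± 0.19, edgeR adjusted p = 1.8e-16), and SEC13 (1.00 ± 0.10, adjusted p = 4.05e-11). Under the offsets AHCTF1 was at −0.91 and SEC13 at 0.4 in Huh-7, still called, but neither was then the largest change in its direction. With the offsets, 7 nucleoporins were lower and 4 higher in HCC-LM3, and 15 lower and 7 higher in Huh-7, against 9.08% lower and 9.9% higher of all genes in HCC-LM3 and 28.5% lower and 29.4% higher in Huh-7. The lists are described by their counts alone.

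**Figure D5:**
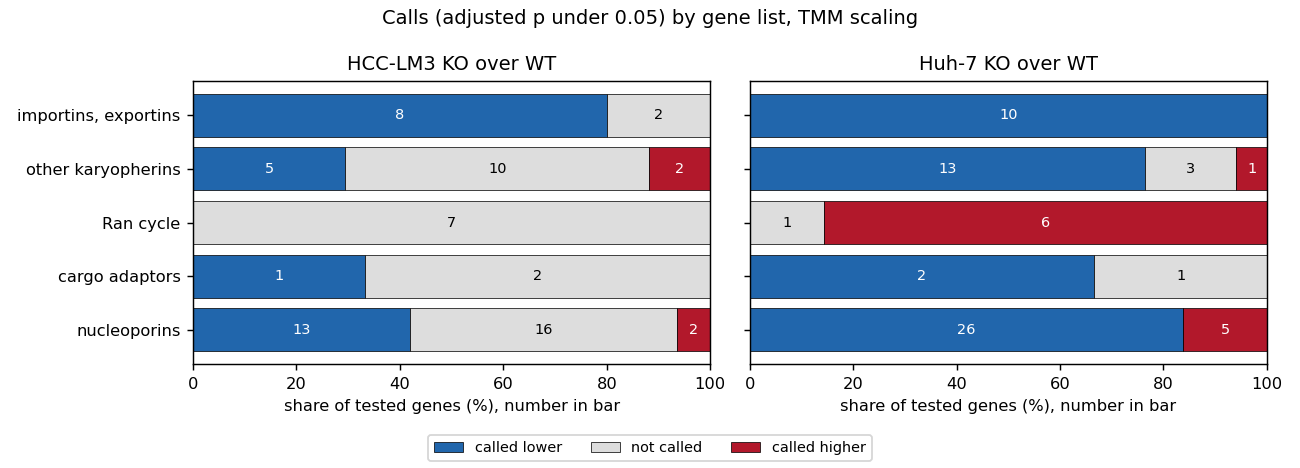
Share of the tested genes of each list called lower, not called or called higher in knockout over wild type (edgeR adjusted p under 0.05, TMM scaling), with the number of genes in each bar. In Huh-7 all 10 importins and exportins are called lower and 6 of the 7 Ran cycle genes are called higher, under TMM scaling without offsets.

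Over the 12 libraries, the genes whose log2 CPM ran closest to the mean profile of the members were GDI2 (Pearson r = 0.9995), ZFR (0.9982), ATP2C1 (0.9982), SLC38A1 (0.998) and EIF2AK2 (0.9979). The search covered 9523 protein-coding genes averaging 5 CPM or more. The 12 points are 4 groups of 3 libraries and share their scaling, so a high r is common, and no p is given.

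The positions below are from GENCODE 29 on GRCh38. KPNA2 lies at chr17:68035519-68046842 and is the only member with no other annotated gene across it, while the other 9 overlap 1 to 3 genes each, mostly antisense RNAs and pseudogenes. XPO1 lies at chr2:61477849-61538626, KPNB1 at chr17:47649476-47685505 and IPO7 at chr11:9384622-9448126, a gene that also holds the small nucleolar RNA SNORA23. Since the strand setting of the counting is not given, reads of overlapping genes cannot be told apart from those of the member. Of the processed copies listed in the table, IPO5P1 had 30 to 253 counts per library, and those of KPNA2, IPO7 and TNPO1 had at most 9.91.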

How the data were processed

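RNA sequencing of 12 libraries, 3 in each of 4 groups, was analysed from 1 deposited gene table. Per the file headers, each library has a column of expected counts and a column of TPM, beside a gene length. The authors' deposited expected counts are unscaled, with 7.49% to 13.3% of values per library not whole. The authors' TPM, scaled for length, add up to 977632 to 998831. Bowtie 0.12.2 and builds of the mouse genome (mm8, mm9) appear in the submitters' processing notes and do not go with the human identifiers. Counting tool, strand setting, annotation and human build: not given in the sources used here. Columns were matched to samples by name.

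After rounding, counts went into edgeR 4.0.16 under R 4.3.3 (filterByExpr, TMM, robust quasi-likelihood, 1 mean per group over all 12 libraries, 8 residual degrees of freedom). P-values are two-sided and Benjamini-Hochberg adjusted over all 16537 genes tested. TMM-scaled CPM were computed from the counts. The precision of each value rests on its counts, 15 per library at the lowest (KPNA3 in Huh-7 knockout), and standard errors are those of the edgeR test. The procedure was also tested on simulated data.

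Offsets were smooth functions (5 degrees of freedom each) of the deposited length and of GC content in GENCODE 29, known for 99.7% of genes tested; 99.54% of all identifiers were found there. The members and lists, the search letters and the offsets were chosen with earlier results of these data known. Named were the 10 members, called further karyopherins with a mean of at least 1 CPM, the largest called change per direction of the other lists, and the 5 most similar profiles. Other alternatives were DESeq2 1.42.0 (size factors and Wald test), library totals, other filters and thresholds, each line alone, the replicate block and leaving out each library. No 2 libraries of a group agreed within sampling noise (chi-square per degree of freedom at least 2.86).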

Additional observations from a re-analysis of the deposited data

Results flagged for a closer look

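The knockout effect differed between the lines for each of the 10 carriers by the edgeR test of the difference itself, the HCC-LM3 log2 fold change minus the Huh-7 one, as it did for 61.6% of all genes tested in either direction and for 37.7% above 0. For the importin alphas the difference was 1.83 ± 0.16 for KPNA1 (SE), 0.47 ± 0.14 for KPNA2, 2.17 ± 0.24 for KPNA3, 1.59 ± 0.17 for KPNA4 and 1.54 ± 0.15 for KPNA6. For the carriers of the beta family it was 2.78 ± 0.16 for KPNB1, 1.5 ± 0.16 for IPO5, 2.03 ± 0.26 for IPO7 and 1.95 ± 0.20 for TNPO1. For the exportin XPO1 it was 1.18 ± 0.18. The adjusted p-values ran from 1.1e-15 for KPNB1 to 0.00448 for KPNA2, and every member had the lower fold change in Huh-7 under TMM scaling. With the GC and length offsets the difference was above 0 and called for KPNA3 and KPNB1 alone, below 0 and called for KPNA4, IPO5 and TNPO1, and not called for the other 5, KPNA1, KPNA6 and XPO1 among them also lying below 0. The median over all genes tested was 0 in HCC-LM3 and −0.30 in Huh-7.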

How the results depend on the processing

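Of the log2 fold changes of members within a line, 393 of 420 values under alternatives kept their direction and their side of the threshold. KPNA2, KPNB1 and IPO7 did so under all of them in both lines, as did XPO1 in HCC-LM3 and KPNA3 in Huh-7. Of the 21 alternatives per value, 12 left out 1 library, some of these from the other line. Such a library bears little on a value within a line. Most of the values that did change came with the GC and length offsets. With them, with or without the replicate block, KPNA1 moved to 0.09 in HCC-LM3 knockout, and in Huh-7 knockout KPNA1 moved to 0.27, KPNA4 to 0.56, IPO5 to 0.20 and TNPO1 to 0.38. The difference between the lines turned to −0.19 for KPNA1, −0.67 for KPNA4, −0.07 for KPNA6, −0.34 for IPO5, −0.47 for TNPO1 and −0.28 for XPO1 (−0.27 with the block). Between the wild-type lines KPNA3 turned to −0.48 and KPNA4 to −0.02. Members called numbered 4 in HCC-LM3 knockout with the offsets, and likewise with a log2 fold change of at least 0.5. In Huh-7 knockout 4 members were then lower and 7 called in either direction, or 6 with the block, which ends the call of IPO5. For the difference between the lines 5 were called with the offsets, 2 of them above 0. The cause was not tested. The KPNA2 difference between the lines was 0.05 with DESeq2's size factors and 0.08 with the DESeq2 Wald test. The KPNA2 share of the importin alphas was 72.1% in HCC-LM3 wild type and 62.5% in Huh-7 wild type from counts per length.

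Leaving out each library in turn gave 7 to 9 members called in HCC-LM3 knockout, 10 to 10 in Huh-7 knockout, 10 to 10 for the difference between the lines and 9 to 10 between the wild-type lines. The KPNA2 share of HCC-LM3 then lay at 59.3 to 61.5% for knockout and 73.8 to 74.1% for wild type, and that of Huh-7 at 67.5 to 77.4% for knockout and 65.2 to 66.2% for wild type. Same-numbered libraries of knockout and wild type did not deviate together (HCC-LM3 r of −0.04, 0.08 and −0.11, Huh-7 r of −0.01, −0.04 and 0.01). Deviations of 3 libraries around their own mean cannot exclude a pairing by number, and the labels state none. With the replicate block 8, 10, 10 and 9 members were called in the 4 comparisons, and 3990 genes in HCC-LM3 and 12251 in Huh-7, against 4440 and 12399 without it. KPNA3 in Huh-7 knockout, at 15 to 29 counts per library, is limited most by depth.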

Other observations

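For several members in Huh-7 knockout, the deposited TPM and count did not keep to 1 ratio across libraries. KPNA1 had 67.2, 62.9 and 53.9 counts in replicates 1, 2 and 3, with 0.30, 1.16 and 0.50 TPM. Relative to the deposited gene length, the transcript length these values imply was 1.74, 0.492 and 0.97. IPO7 had 51, 44 and 50 counts with 0.25, 0.25 and 0.98 TPM, implying 1.77, 1.79 and 0.513 of the deposited length. KPNA6 and KPNA3 gave 1.75 to 1.77 and 1.67 to 1.73 in the same libraries. In Huh-7 wild type IPO7 gave 1.47 to 1.56 and KPNB1 0.69 to 0.693, against 1.53, 0.66 and 0.969 for KPNB1 in Huh-7 knockout. The TPM values of KPNA1, IPO7 and KPNB1 in Huh-7 knockout therefore carry a spread that their counts do not show.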
